A study of Mus musculus with 8 samples.

Results

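The genes described here are 7 surface and secreted proteins used to mark adventitial fibroblasts: Cd34, Cd248, Pi16, Ackr3 (formerly Cxcr7), Pcsk6, Dpp4 and Anxa3. They were taken by name from the probe annotation of the arrays, with all probes of each gene, and make up 7 of 24474 named genes and 8 probes in all. Messenger RNA was read on 8 Agilent mouse arrays with 1 colour, 2 for each of the sorted fibroblast types, called A-type, B-type and C-type, and 2 for pulmonary single cells (Pu), the lung cell suspension from which the fibroblasts were sorted. Every sample held 50000 freshly isolated, untreated cells from lungs of adult female C57BL/6 mice aged 12 to 16 weeks, and its RNA was amplified before labelling. The sort used antibodies to Pdgfra, Thy-1 and Sca-1, and to the lineage markers of endothelium (CD31, CD146, Lyve-1), blood (CD45, TER119) and epithelium (E-Cadherin). The combination that defines each type and the number of mice behind a sample are not given in the sources used here. Arrays are named A1, A2, B1, B2, C1, C2, Pu1 and Pu2.

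Adventitial fibroblasts lie in the connective tissue cuffs around airways and larger vessels, apart from the fibroblasts of the alveolar walls. They make collagens and other matrix proteins, hyaluronan and cytokines, and in the mouse several of them carry Sca-1 and CD34 on the surface. Of the genes described here, Cd34, Cd248 and Pi16 encode surface glycoproteins of such cells, Dpp4 a surface peptidase, Ackr3 a chemokine scavenger, Pcsk6 a secreted protease and Anxa3 a membrane-binding protein that also lies inside cells.

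Levels are given as scaled log2 signal, the log2 of the scanner's processed signal minus the 75th percentile of that array, so that 0 is the signal at that percentile and a step of 1 is a 2-fold change in brightness. Levels of different genes come from different probes and were not set against each other. That percentile lay between 110 and 250 signal units over the 8 arrays, and 54.2% to 68.2% of probes were well above background. Across genes, paired arrays correlated at 0.985 for A, likewise 0.985 for B, 0.947 for C and 0.916 for Pu. Between the arrays of C, 20.9% of genes differed 2-fold or more, and 31.4% for Pu, with 5.20% for A and 5.54% for B. All fibroblast arrays were on 1 slide and in 1 scan, and both Pu arrays were on another slide and in another scan, so the contrast with Pu and that of slide or scan cannot be told apart. The labels call the samples of a group independently prepared. P-values measure the spread between samples of a group, pooled over the 4 groups into 1 estimate per gene that also draws on the other genes tested. Each comparison, A against B included, thus uses the spread of C and Pu too. In a bulk sample, fewer cells of a type and less RNA per cell cannot be told apart.

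The fibroblast label was checked with 5 fibroblast genes (Pdgfra, Col1a1, Col1a2, Dcn and Lum), all well above background on all arrays. Their summed scaled signal, on the linear scale, was 700 and 781 in A, 824 and 733 in B and 381 and 359 in C, against 37.5 and 50.3 in Pu (replicate 1 before replicate 2, here and below). Pdgfra, included in this sum, was a target of the sort, so its signal is no check on the label. The check rests on Col1a1, Col1a2, Dcn and Lum. All 7 marker genes passed the detection filter, which asked for a signal well above background on both arrays of at least 1 group.

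Cd34 is the only member with more than 1 probe, and its probes gave unlike readings in Pu. Their sequences are shown for that reason, with capitals marking AATAAA, the letters of the polyadenylation signal. The brighter probe lies at chr1:196785280-196785339 and the other at chr1:196787392-196787451 (mouse build mm9, plus strand), with 2052 bases between them. The other probe is shown by 30 of its bases.
Cd34, brighter probe: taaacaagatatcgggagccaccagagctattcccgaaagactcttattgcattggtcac
Cd34, other probe: tattctcttctgAATAAAcgtgatgagtga
The probe of Pi16, at chr17:29465784-29465843 on the plus strand, also holds AATAAA, and 30 of its bases are shown.
Pi16 probe: ccttgactcctgAATAAAgcctgtctgaga
The probe of Anxa3 lies at chr5:97253925-97253984 on the plus strand and is shown because Anxa3 and Dpp4 departed from the other members.
Anxa3 probe: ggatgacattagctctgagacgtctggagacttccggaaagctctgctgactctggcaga

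Cd248, Cd34, Pi16, Pcsk6 and Ackr3, 5 of the 7 genes, were brighter in A-type and B-type fibroblasts than in Pu. Dpp4 and Anxa3 were not: their B and Pu arrays overlapped, and in the C type both genes were lower than in Pu. Each of the 7 genes was brightest in B, next in A and dimmest in C among the sorted cells on every array, with the brighter probe of Cd34. With its other probe, A and B overlapped. The differences between B and C passed the test for 5 genes, those between A and C for 2, and those between A and B for 0.

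**Figure D1:**
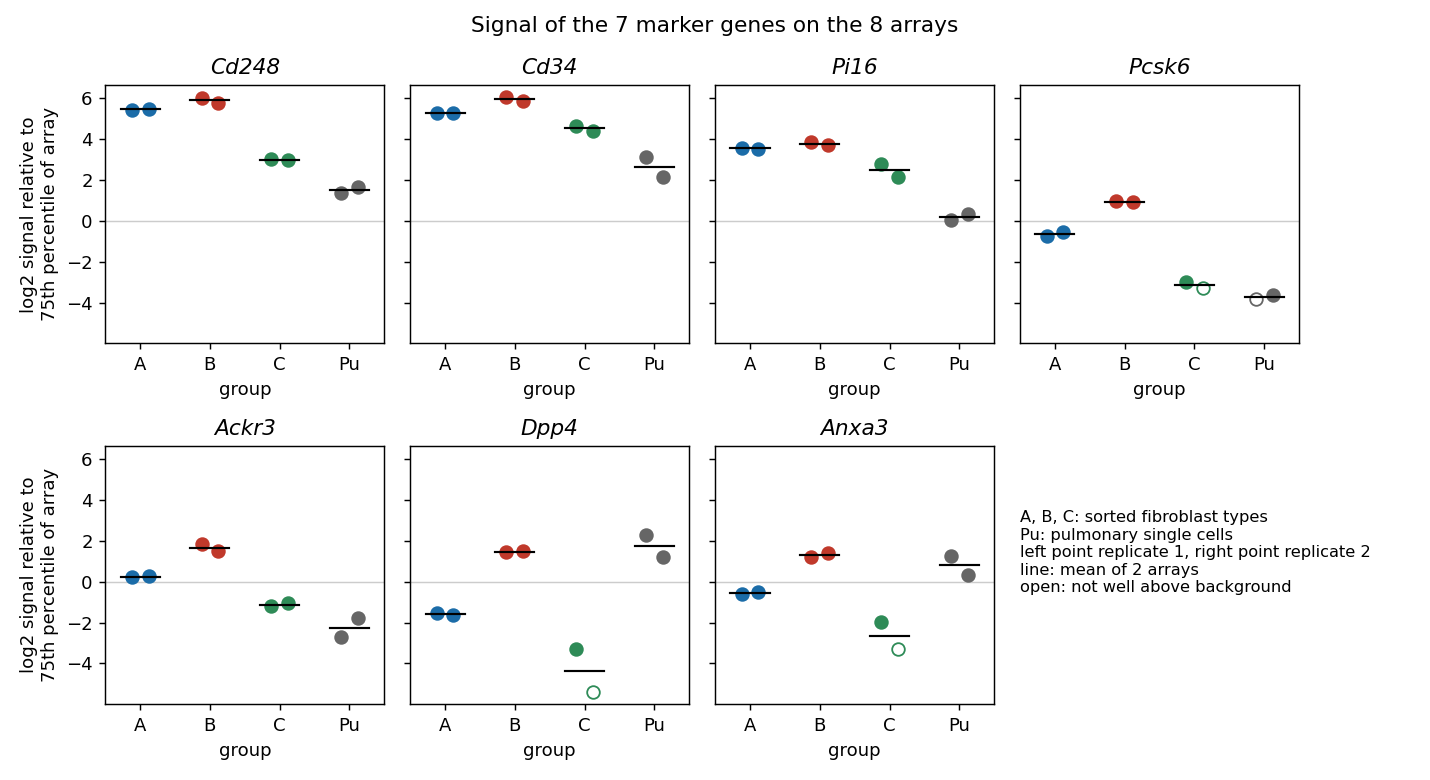
Scaled log2 signal of the 7 genes (vertical axis) on each of the 8 arrays, by group, with a line at the mean of 2 arrays and open points where the probe was not well above background. B-type fibroblasts had the highest mean among the 3 sorted types for every gene, and for Dpp4 and Anxa3 the Pu and B arrays overlap.

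Cd34 encodes a heavily glycosylated sialomucin of haematopoietic progenitors, vascular endothelium and tissue stroma. With its brighter probe it read 5.28 and 5.25 in A, 6.07 and 5.85 in B and 4.66 and 4.39 in C, against 3.14 and 2.16 in Pu. The 4 groups did not overlap, with B highest and Pu lowest. The gene was 6.12-fold higher in A than in Pu (log2 difference 2.61 ± 0.37 SE, limma adjusted p = 0.00266), 9.93-fold higher in B (3.31 ± 0.37, adjusted p = 0.000944) and 3.67-fold higher in C (1.88 ± 0.37, adjusted p = 0.0105). Neighbouring types in this order were not separated by the test, at -0.70 for A minus B and 0.74 for A minus C, nor was B minus C at 1.44 (adjusted p = 0.117). The other Cd34 probe read 5.44 and 5.25 in A, 5.49 and 5.42 in B and 4.60 and 4.26 in C, against 1.75 and 3.61 in Pu. It also put A (2.66, adjusted p = 0.0201) and B (2.77, adjusted p = 0.0164) above Pu, while C minus Pu missed the threshold (1.75, adjusted p = 0.0727). Between the probes, Pu1 was the brighter Pu array with 1 and the dimmer with the other. By group mean, the probe called brighter read higher than the other in B (5.96 against 5.45) and C (4.53 against 4.43). It read slightly lower in A (5.26 against 5.34) and in Pu (2.65 against 2.68). The C minus Pu call of the brighter probe was also lost in a fit of the 4 compared arrays alone (adjusted p = 0.0750).

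Cd34 is made by blood endothelium too, which the suspension contains. The summed scaled signal of 10 blood endothelial markers was 5.69 and 5.82 in A, 8.16 and 7.61 in B and 4.63 and 4.64 in C, against 98.3 and 122 in Pu. Of the 10, all were well above background in Pu and 2 to 8 on each fibroblast array. Most of the fibroblast sums was Kdr and Tek. On the scaled log2 scale these averaged 1.83 and 0.53 in A, 1.81 and 1.72 in B and 1.91 and -1.85 in C. In Pu they averaged 3.26 and 2.08. All 10 were called lower than in Pu in A and in C, and 9 in B, where Tek was not. The summed signal was highest in Pu, where Cd34 was lowest, and its part in the Cd34 differences was not tested.

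Cd248 encodes endosialin, a transmembrane glycoprotein with a C-type lectin-like domain found on fibroblasts and pericytes; its probe lies at chr19:5070558-5070617 on the plus strand. It read 5.42 and 5.48 in A, 6.02 and 5.77 in B and 3.02 and 2.97 in C, against 1.34 and 1.67 in Pu. The arrays of each group lay close together, B and A stood well above C, and C stood above Pu, with no overlap. Cd248 was 15.4-fold higher in A than in Pu (3.94 ± 0.28, adjusted p = 0.000159), 21.0-fold higher in B (4.39 ± 0.28, adjusted p = 0.000119) and 2.81-fold higher in C (1.49 ± 0.28, adjusted p = 0.00786). Between the types it was 5.48-fold higher in A than in C (2.45 ± 0.28, adjusted p = 0.0322) and 7.48-fold higher in B than in C (2.90 ± 0.28, adjusted p = 0.00511), while A minus B was -0.45 and did not pass. The C minus Pu call was lost with array weights (adjusted p = 0.0581) and in the 4 compared arrays alone (adjusted p = 0.0910). Pericytes were read from 6 pericyte and smooth muscle markers, whose summed signal was 6.19 and 7.16 in A, 4.18 and 3.78 in B and 4.55 and 4.61 in C, against 6.27 and 8.25 in Pu. These markers did not move as a group: Kcnj8 was called higher than in Pu in every type (4.09, 3.52 and 3.63 for A, B and C), while Rgs5, Myh11 and Cnn1 were called lower in every type. Their part in the Cd248 differences was not tested.

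Pi16 encodes a membrane-anchored protein of the CAP superfamily, known as a marker of fibroblasts around vessels in many tissues. It read 3.57 and 3.52 in A, 3.84 and 3.72 in B and 2.79 and 2.17 in C, against 0.06 and 0.32 in Pu. All fibroblast arrays were above both Pu arrays, and the types followed the order B, A, C without overlap. Pi16 was 10.2-fold higher in A than in Pu (3.35 ± 0.31, adjusted p = 0.000434), 12.0-fold higher in B (3.59 ± 0.31, adjusted p = 0.000325) and 4.88-fold higher in C (2.29 ± 0.31, adjusted p = 0.00226). The types were closer to each other for Pi16 than the differences from Pu, at -0.24 for A minus B, 1.07 for A minus C and 1.30 for B minus C (adjusted p = 0.0930), and none of these passed. Leaving out C1 moved B minus C to 1.61 with an adjusted p of 0.0485.

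Ackr3 encodes an atypical chemokine receptor that takes up CXCL12 and adrenomedullin and signals through arrestins rather than G proteins; its probe lies at chr1:92111803-92111862 on the plus strand. It read 0.21 and 0.27 in A, 1.86 and 1.47 in B and -1.22 and -1.04 in C, against -2.72 and -1.77 in Pu. The 4 groups stood apart in the order B, A, C, Pu, with a wide gap between Pu1 and Pu2. Ackr3 was 5.60-fold higher in A than in Pu (2.48 ± 0.38, adjusted p = 0.00331) and 15.0-fold higher in B (3.91 ± 0.38, adjusted p = 0.000471). C minus Pu was 1.12 and missed the threshold (adjusted p = 0.0649), but passed under median scaling (1.52, adjusted p = 0.0381) and without Pu2 (1.59, adjusted p = 0.0102). Ackr3 was 6.94-fold higher in B than in C (2.79 ± 0.38, adjusted p = 0.0145). That call was lost on leaving out A1 or A2 (adjusted p = 0.0509 each), B1 (0.156), B2 (0.113) or C2 (0.0590).

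Pcsk6 encodes PACE4, a subtilisin-like convertase that is secreted, binds the matrix and cleaves precursors of the TGF-beta family; its probe lies at chr7:73195141-73195200 on the plus strand. It read -0.72 and -0.53 in A, 0.95 and 0.91 in B and -3.0 and -3.26 in C, against -3.81 and -3.62 in Pu. The probe was not well above background on C2 and Pu1. B and A stood far above C and Pu, which lay close to each other without overlapping. Pcsk6 was 8.48-fold higher in A than in Pu (3.08 ± 0.27, adjusted p = 0.000344) and 25.0-fold higher in B (4.64 ± 0.27, adjusted p = 9.36e-05), while C minus Pu was 0.58 and did not pass (adjusted p = 0.154). It was 5.66-fold higher in A than in C (2.50 ± 0.27, adjusted p = 0.0309) and 16.7-fold higher in B than in C (4.06 ± 0.27, adjusted p = 0.00293). With normexp background correction, A minus C shrank to 0.94 and lost its call (adjusted p = 0.128). Leaving out B1 ended the B minus C call (4.04, adjusted p = 0.0613).

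Dpp4 encodes CD26, a surface serine peptidase that trims dipeptides from chemokines such as CXCL12 and is also known from T cells and epithelia; its probe lies at chr2:62170062-62170121 on the minus strand. It read -1.56 and -1.65 in A, 1.43 and 1.49 in B and -3.30 and -5.42 in C, against 2.30 and 1.22 in Pu. The B arrays lay between the Pu arrays, A was below both groups, and C was lowest, with C2 not well above background. Dpp4 was 10.3-fold lower in A than in Pu (-3.36 ± 0.68, adjusted p = 0.0114), and this call was lost without A1 (adjusted p = 0.0603), A2 (0.0707) or Pu1 (0.0599). In C it was 69.5-fold lower than in Pu (-6.12 ± 0.68, adjusted p = 0.000970), or 45.3-fold with C2 set no lower than the dimmest signal that was well above background. That difference was -7.18 without C1 and -5.06 without C2. B minus Pu was -0.29 with an adjusted p of 0.770 and a 95% interval from -1.90 to 1.31.

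Between types, Dpp4 was 56.7-fold higher in B than in C (5.82 ± 0.68, adjusted p = 0.00901), or 37.0-fold with C2 set no lower than that signal. The difference was 6.88 without C1 and 4.77 without C2, and the call was lost without B1 (adjusted p = 0.0907) or B2 (0.0881). A minus B was -3.07 (adjusted p = 0.429) and A minus C was 2.75 (adjusted p = 0.158). The A minus C value was 2.14 with C2 set no lower than that signal, 3.81 without C1 and 1.70 without C2. In the main fit of all arrays, A was thus not separated from either neighbour. With array weights or normexp background correction, A minus B was called, as given below. The suspension holds other cells that can make Dpp4. The summed signal of 6 T and NK cell markers was 5.90 and 5.16 in A, 5.14 and 4.95 in B and 5.20 and 6.22 in C, against 22.8 and 49.6 in Pu. On the fibroblast arrays most of this sum was Nkg7, which averaged 2.28 in A, 2.16 in B and 2.32 in C on the scaled log2 scale, against 3.25 in Pu, and was not called. The other 5 were called lower than in Pu in every type, by log2 differences from -3.29 (Cd3e in A) to -7.70 (Cd2 in B, at least 207-fold). The summed signal of 5 alveolar type 1 markers was 0.670 and 0.598 in A, 0.814 and 0.930 in B and 1.46 and 0.923 in C, against 11.7 and 10.7 in Pu. Both were highest in Pu, where all of these markers were well above background, against 2 to 4 of 6 and 3 to 4 of 5 on each fibroblast array, and their part in the Dpp4 and Anxa3 differences from Pu was not tested. Between B and C, 0 of the 6 and 0 of the 5 were called. The summed signal of 5 alveolar type 2 markers was 6.17 and 5.67 in A, 6.23 and 9.16 in B and 16.3 and 9.19 in C, against 259 and 278 in Pu. Most of the A and B sums was Lamp3, which averaged 2.30 in A, 2.81 in B and 2.68 in C on the scaled log2 scale. In Pu it averaged 3.32, and it was not called against Pu. The other 4 were called lower than in Pu in every type, by log2 differences from -5.18 (Sftpb in C) to -9.17 (Sftpc in B). Of the 5, Sftpc alone was called between B and C, lower in B (-3.58 ± 0.61, adjusted p = 0.0343), a call lost without A1, A2, B1, B2, Pu1 or Pu2. Among the 10 blood endothelial markers, 2 were called higher in B, Tek (3.57 ± 0.39, adjusted p = 0.00707) and Ptprb (3.11 ± 0.32, adjusted p = 0.00607, at least 7.91-fold). Both of these calls were lost without B1 or B2. The blood endothelial sum given above was also higher on both B arrays than on both C arrays. Most of that gap was Tek itself, which averaged 1.72 in B and -1.85 in C on the scaled log2 scale, while Kdr averaged 1.81 and 1.91. Of the uncalled markers, Emcn (1.15), Tie1 (1.11), Pecam1 (0.98), Egfl7 (0.26) and Cdh5 (0.03) were higher in B by mean. Kdr (-0.10), Sox17 (-0.32) and Cldn5 (-0.43) were lower. Emcn, Tie1 and Sox17 were not well above background on either C array. The part of the blood endothelial sum and of the alveolar type 2 markers in the Dpp4 and Anxa3 differences between B and C was not tested.

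Anxa3 encodes an annexin, a calcium-dependent phospholipid-binding protein also known from neutrophils and epithelia. It read -0.59 and -0.52 in A, 1.22 and 1.38 in B and -1.99 and -3.31 in C, against 1.27 and 0.31 in Pu. As with Dpp4, B overlapped Pu, A lay below both and C lay lowest, with C2 not well above background. Anxa3 was 10.8-fold lower in C than in Pu (-3.44 ± 0.50, adjusted p = 0.00298), a difference of -4.10 without C1 and -2.78 without C2. A minus Pu was -1.35 (adjusted p = 0.0922) and B minus Pu was 0.51 (adjusted p = 0.482). Of 19 recomputed fits, those with an array left out included, 4 called A minus Pu. The A minus Pu value passed on leaving out C1 or C2 (adjusted p = 0.0434 each) or Pu2 (-1.83, adjusted p = 0.0478). Anxa3 was 15.4-fold higher in B than in C (3.95 ± 0.50, adjusted p = 0.0127), with 4.60 without C1 and 3.29 without C2, and the call was lost without B1 (adjusted p = 0.108) or B2 (0.12). The summed signal of 5 neutrophil markers came to 154 and 135 in A, 135 and 145 in B and 161 and 175 in C, against 183 and 253 in Pu. Of these 5, all were well above background in Pu and 1 to 3 on each fibroblast array. Nearly all of the fibroblast sums was Csf3r, which averaged 7.17 in A, 7.13 in B and 7.39 in C on the scaled log2 scale, against 7.37 in Pu. The other 4 (S100a8, S100a9, Retnlg and Cxcr2) were called lower than in Pu in every type, by log2 differences from -5.53 (Cxcr2 in C, at least 46.3-fold) to -10.73 (S100a9 in A, at least 792-fold). Their part in the Anxa3 differences was not tested.

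The sizes of the differences of Dpp4, Anxa3, Pcsk6 and Ackr3 were smaller with normexp background correction, which adds an offset of 50 to every signal. Dpp4 then came to -2.40 for A minus Pu, -2.82 for C minus Pu and 2.56 for B minus C, and Anxa3 to -1.66 for C minus Pu and 2.15 for B minus C. Pcsk6 came to 1.25 for A minus Pu, 2.38 for B minus Pu and 2.06 for B minus C. Ackr3 came to 1.36 for A minus Pu, 2.52 for B minus Pu and 2.00 for B minus C. All of these were called with that correction (adjusted p from 3.66e-05 to 0.00370), and no difference of Cd34, Cd248 or Pi16 moved by as much as 1.5 times.

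Counted by comparison, A against Pu called 6 of the 7 members, 5 higher and Dpp4 lower. The background share of all 17755 genes tested was 26.4% in either direction, 14.7% higher and 11.7% lower. B against Pu called 5 members, all higher, where the background was 28.9% in either direction and 16.0% higher. C against Pu called 5, with Cd34, Cd248 and Pi16 higher (background 14.6%) and Dpp4 and Anxa3 lower (background 13.7%), and 28.3% of all genes passed in either direction. The median log2 difference of the members was 2.61 in A, 3.59 in B and 1.12 in C, against 0.11, 0.11 and 0.05 over all genes tested. These 3 comparisons share the Pu arrays. The members were chosen with earlier results of these data known, so the counts here and below are descriptions and no independent support.

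On all arrays, 5 members were higher and 2 lower in A than in Pu, where 36.9% and 29.1% of all genes stood apart in these directions. In B, 5 were higher (background 37.2%) and 0 lower (background 30.1%), since Dpp4 and Anxa3 overlapped Pu. In C, 5 were higher and 2 lower (background 30.3% and 28.1%). The share of higher genes among all calls of A against Pu was 55.6%, and 68.3% under median scaling and 41.4% with the percentile taken over probes above background on all arrays. In the same order it was 55.6%, 69.7% and 38.6% for B and 51.7%, 69.2% and 35.8% for C. The number and direction of member calls in A and B against Pu were the same under these 2 scalings.

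**Figure D2:**
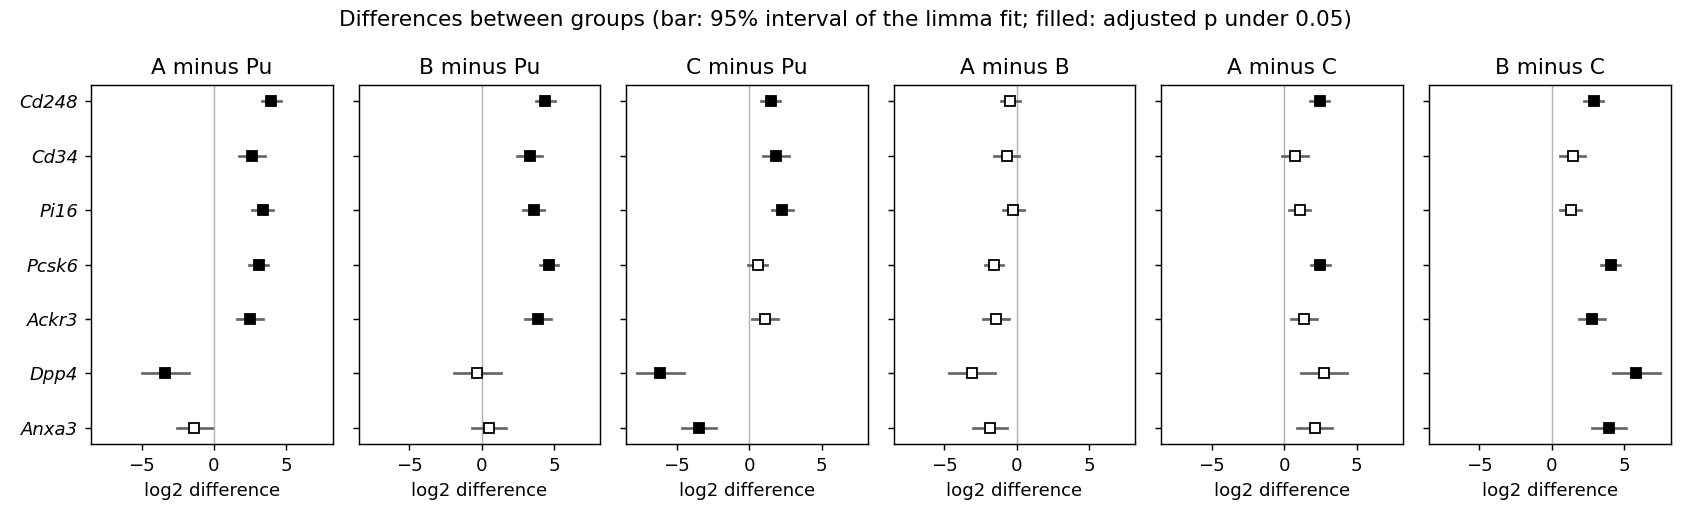
Log2 difference of each gene (horizontal axis) in the 6 comparisons, with the 95% interval of the limma fit as a bar and filled squares at an adjusted p under 0.05. Cd248, Cd34 and Pi16 lie to the right of 0 in all 3 comparisons with Pu, and all 7 genes lie left of 0 in A minus B and right of 0 in B minus C.

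Between A and B, limma called 0 of the 7 members and 0 of 17755 genes, a background of 0%. At an unadjusted p under 0.05, 4 members (Dpp4, Anxa3, Pcsk6 and Ackr3) and 574 genes passed. With the brighter probe of Cd34, the A arrays were below both B arrays for all 7 members, which held for 22.6% of all genes, each read by its brightest probe. With the other Cd34 probe, A and B overlapped (-0.11). The probe called brighter was so by group mean in B and C but not in A or Pu. Its choice was thus not independent of the B signal, and the place of Cd34 among the 7 rests on it. The median difference of the members was -1.43, against -0.01 over all genes. With array weights the same 4 genes were called, at -3.07 for Dpp4 (adjusted p = 0.00845), -1.85 for Anxa3 (0.0171), -1.56 for Pcsk6 (0.00761) and -1.43 for Ackr3 (0.0227). With normexp background correction only Dpp4 was called among the members (-2.14, adjusted p = 0.0296).

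Between A and C, Cd248 and Pcsk6 were called higher in A, 2 of 7 members where 0.270% of all genes were called higher, 0.118% lower and 0.389% in either direction. All 7 members were higher on both A arrays than on both C arrays, which held for 28.9% of all genes, with 24.6% the other way round, and their median difference was 2.09 against 0.06 over all genes. Neither call was firm. Both were lost on leaving out A1, A2, B1, B2 or C2, with adjusted p from 0.0820 to 0.276, and with the replicate number as a block (adjusted p = 0.0635 each), while 4 members were called without C1.

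Between B and C, Dpp4, Cd248, Anxa3, Pcsk6 and Ackr3 were called higher in B, 5 of 7 members where 1.24% of all genes were called higher, 1.15% lower and 2.40% in either direction. All 7 were higher on both B arrays than on both C arrays (29.8% of all genes, and 24.5% lower), with a median of 2.90 against 0.06 over all genes. Without B1 or B2, where B was left with 1 array, most of these calls and most calls over all genes were lost. The differences moved less. With each array left out in turn, Cd248 ran from 2.78 to 3.03, Pcsk6 from 3.93 to 4.19 and Ackr3 from 2.60 to 2.99. Anxa3 ran from 3.29 to 4.60 and Dpp4 from 4.77 to 6.88, and for both the ends of the range came from leaving out a C array.

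The genes of the sort were read beside the members, since their proteins defined the types. Thy1 read -0.46 and -0.03 in A, 4.96 and 4.67 in B and 1.89 and -1.56 in C, against 2.67 and 3.02 in Pu. Ly6a, which encodes Sca-1, read 6.04 and 6.40 in A, 6.79 and 6.63 in B and 2.96 and 0.61 in C, against 4.88 and 5.06 in Pu. Pdgfra read 3.73 and 3.86 in A, 3.53 and 3.60 in B and 4.21 and 4.48 in C, against 1.83 and 1.60 in Pu. The 7 members followed the order of Ly6a among the types (B, A, C), while Thy1 was lowest on average in A and Pdgfra was highest in C.

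The members fell into groups by their profile over the 8 arrays. Dpp4 and Anxa3 correlated with each other at a Pearson r of 0.98, and with the other 5 between -0.24 and 0.26 for Dpp4 and between -0.06 and 0.43 for Anxa3. Among the other 5, r ran from 0.86 (Pi16 and Pcsk6) to 0.97 (Pcsk6 and Ackr3), with 0.96 for Pi16 and Cd34 and for Cd248 and Pcsk6. These values describe 8 arrays in 4 groups that share slides, scans and scaling.

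**Figure D3:**
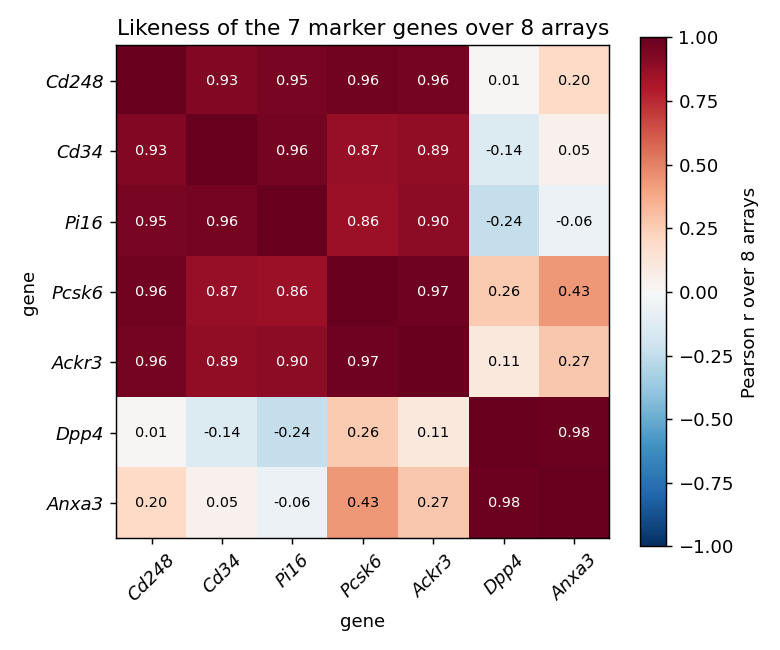
Pearson r between the 7 genes over 8 arrays, with genes on both axes and colour from -1 to 1. Dpp4 and Anxa3 form a pair at 0.98 apart from the other 5 genes, which correlate with each other at 0.86 to 0.97.

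Among all genes tested, the 3 nearest to Pi16 were Enpp3, Jam3 and Zfp521 (r = 1.00 each after rounding), and the 3 nearest to Cd34 were Fez1, Dact1 and Twist2 (0.99 each). Cd248 was nearest to Anpep, Penk and Sorcs2 (0.99 each), and Penk, which encodes preproenkephalin, averaged 5.09 in A, 5.33 in B and 1.40 in C, against -1.14 in Pu. Pcsk6 was nearest to Trio (1.00), Efhd1 (0.99) and Aif1l (0.99), and Efhd1 averaged 0.87 in A, 3.94 in B and -4.49 in C, against -4.78 in Pu. Ackr3 was nearest to Zfp764, Epb41l3 and Pla2g4a (0.988, 0.988 and 0.985). Dpp4 was nearest to Uspl1, Anxa3 and Tek, and Anxa3 to Dynlt1f, Dpp4 and Tek (0.97 to 0.98). Tek, which encodes the angiopoietin receptor TIE2 of endothelium, averaged 0.53 in A, 1.72 in B and -1.85 in C, against 2.08 in Pu.

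RefSeq promoter sequences were available for 5 of the 7 members, which are shown because these genes either moved together or, with Dpp4, apart. Each line gives the 250 bases before the RefSeq start in build GRCm38.p6, on the strand of the gene, with capitals marking short motifs searched on both strands. The TATA box was searched as TATAAA, and TTTAAA was taken as a variant of that box. The GC box was searched as GGGCGG, and the other strand of this box reads CCGCCC there. The last motif was CCAAT, and the other strand of it reads ATTGG there. No motif overlapped another. The Pcsk6 promoter lies at chr7:65861886-65862135 (plus strand), that of Ackr3 at chr1:90203730-90203979 (plus), that of Pi16 at chr17:29318632-29318881 (plus), that of Cd34 at chr1:194938571-194938820 (plus) and that of Dpp4 at chr2:62412232-62412481 (minus).
Pcsk6 promoter: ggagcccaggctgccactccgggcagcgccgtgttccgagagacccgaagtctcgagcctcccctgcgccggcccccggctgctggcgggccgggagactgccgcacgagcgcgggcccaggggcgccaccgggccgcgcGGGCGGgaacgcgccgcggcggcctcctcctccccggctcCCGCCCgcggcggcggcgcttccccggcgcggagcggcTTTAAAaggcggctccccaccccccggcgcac
Ackr3 promoter: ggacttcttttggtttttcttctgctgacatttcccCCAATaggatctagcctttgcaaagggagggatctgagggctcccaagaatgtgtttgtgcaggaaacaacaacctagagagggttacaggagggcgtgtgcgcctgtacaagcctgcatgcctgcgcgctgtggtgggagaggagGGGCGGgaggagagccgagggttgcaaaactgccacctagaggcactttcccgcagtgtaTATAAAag
Pi16 promoter: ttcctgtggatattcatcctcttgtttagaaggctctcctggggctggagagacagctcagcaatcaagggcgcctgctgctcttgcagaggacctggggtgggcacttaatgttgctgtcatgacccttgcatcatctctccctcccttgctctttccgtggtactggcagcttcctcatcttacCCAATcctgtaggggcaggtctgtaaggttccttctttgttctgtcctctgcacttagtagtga
Cd34 promoter: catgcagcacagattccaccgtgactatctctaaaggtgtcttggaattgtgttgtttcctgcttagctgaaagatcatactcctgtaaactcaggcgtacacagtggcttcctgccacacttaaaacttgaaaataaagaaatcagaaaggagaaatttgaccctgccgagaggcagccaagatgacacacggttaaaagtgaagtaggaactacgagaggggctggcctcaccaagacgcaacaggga
Dpp4 promoter: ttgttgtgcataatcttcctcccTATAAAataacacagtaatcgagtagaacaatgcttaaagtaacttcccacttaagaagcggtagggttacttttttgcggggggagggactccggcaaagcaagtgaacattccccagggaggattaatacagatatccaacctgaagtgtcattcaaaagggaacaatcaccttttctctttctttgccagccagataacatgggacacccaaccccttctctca
Pcsk6 holds TTTAAA beginning 32 bases before the start and GGGCGG at 110 and, on the other strand, at 70 bases before it. Ackr3 holds TATAAA at 8, GGGCGG at 68 and CCAAT at 214 bases before the start. Pi16 holds CCAAT at 64 and Dpp4 TATAAA at 227 bases before the start, and Cd34 holds none of the 4. Of 32841 promoters of this length, 12.4% hold TATAAA, 12.1% TTTAAA, 32.7% GGGCGG and 33.9% CCAAT on either strand. The GC content was 81.2% for Pcsk6, 54.0% for Ackr3, 52.4% for Pi16, 46.4% for Cd34 and 43.6% for Dpp4, against a median of 52.4% over all promoters.

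The members were set beside 16 other genes known as adventitial markers. Among them, Ly6a encodes Sca-1, a target of the sort, so its differences cannot be read apart from the sort. This list and those below were chosen with earlier results of these data known, so their counts give no independent support. Of the 16, 12 were higher and 0 lower in A than in Pu (background 14.7% and 11.7%). In B 13 were higher and 0 lower (16.0% and 12.8%), and in C 11 were higher and 3 lower (14.6% and 13.7%). The 3 lower in C were Ly6a, Ly6c1 and Sema3c. The list's median log2 difference was 3.89 in A, 4.24 in B and 2.51 in C. Has1, a hyaluronan synthase, had log2 differences from Pu of 4.91 ± 0.27 for A (adjusted p = 9.08e-05), 5.48 for B and 3.99 for C. The eotaxin gene Ccl11 was 50.4-fold higher in A than in Pu (5.66 ± 0.44) and 77.4-fold higher in B (6.27 ± 0.44). Between types, 0 of the 16 were called in A against B and 3 were higher in A than in C (background 0.270%). In B against C, 7 were higher (background 1.24%) and 1 lower (background 1.15%). The 3 calls in A against C (Ly6c1, Sfrp4 and Sema3c) were all lost without A1, A2, B1, B2 or C2. The 8 calls in B against C (Ly6a, Ly6c1, Has1, Ccl11, Sfrp4, Il33, Sema3c and Gpx3) were all lost without B1 and without B2. The WNT regulator Sfrp4, for one, was 15.4-fold higher in B than in C (3.94 ± 0.37, adjusted p = 0.00511), and Gpx3 ran the other way (-1.84 ± 0.27).

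Markers of alveolar fibroblasts ran opposite to the members between B and C. Of 10 on the list, 9 passed the detection filter. In B against C, 5 were lower (background 1.15%) and 0 higher (background 1.24%), with a median of -1.85. Of these 5 calls (Npnt, Itga8, Limch1, Ces1d and Fgfr4), that of Npnt was the only one to hold with each array left out in turn. Without B1 the other 4 were lost, and without B2 those of Limch1, Ces1d and Fgfr4. The calls of Ces1d and Fgfr4 were also lost without A1, A2, C1 or C2. Npnt, which encodes the matrix ligand nephronectin, was 66.2-fold lower in B (-6.05 ± 0.30, adjusted p = 0.00181), and Itga8, the integrin subunit that binds it, was 30.2-fold lower (-4.92 ± 0.35, adjusted p = 0.00321). The summed scaled signal of the 9 was 195 and 221 in A, 138 and 116 in B and 374 and 399 in C, against 68.5 and 67.3 in Pu. Most of the fibroblast sums was Inmt, which averaged 7.38 in A, 6.74 in B and 7.75 in C on the scaled log2 scale. In Pu it averaged 4.99, and it was not called between types. Against Pu, 2 of the 9 were higher and 1 lower in A (background 14.7% and 11.7%). In B 2 were higher and 4 lower (16.0% and 12.8%), with a median of -0.82. In C 5 were higher and 0 lower (14.6% and 13.7%).

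**Figure D4:**
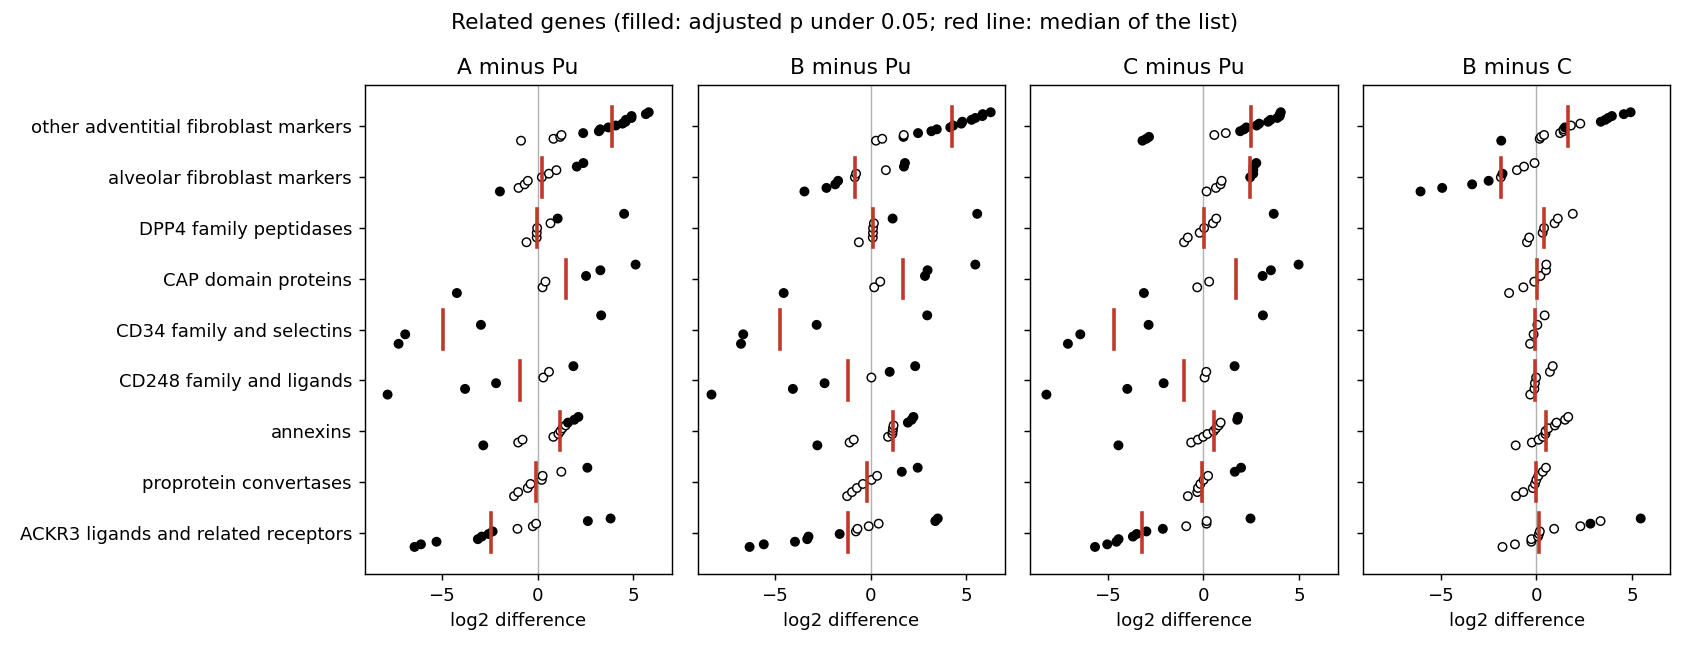
Log2 difference (horizontal axis) of each tested gene of 9 lists (rows) in A, B and C against Pu and in B against C, filled at an adjusted p under 0.05, with a red line at the list's median. Other adventitial markers have medians of 3.89, 4.24 and 2.51 against Pu and 1.65 in B minus C, where alveolar fibroblast markers have a median of -1.85.

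Relatives of the members were then read by family. Their counts against Pu are to be read beside the shares of all genes tested. These were 14.7% higher and 11.7% lower in A, 16.0% and 12.8% in B and 14.6% and 13.7% in C, and several counts lie near them. Among 7 tested relatives of the DPP4 peptidases, 2 were higher in A and in B and 1 in C than in Pu. Fap, the fibroblast activation protein and closest relative of Dpp4, was 22.9-fold higher in A than in Pu (4.52 ± 0.69, adjusted p = 0.00348), 47.5-fold in B (5.57 ± 0.69) and 12.7-fold in C (3.67 ± 0.69), where Dpp4 was not. Without Pu1 these differences were 3.51, 4.56 and 2.66, and without Pu2 5.53, 6.58 and 4.68. Without C1 and without C2 that of C was 3.03 and 4.31. Fap was well above background on only 1 of the 2 Pu arrays. Among 6 tested CAP domain relatives of Pi16, 3 were higher and 1 was lower in each type. Pi15 was 5.78-fold higher in A than in Pu (2.53 ± 0.29, adjusted p = 0.00104), 7.88-fold in B and 8.51-fold in C, so that C was not the lowest type as it was for Pi16.

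Of 4 tested genes of the CD34 family and the selectins, whose L-selectin binds CD34, 1 was higher and 3 were lower in each type than in Pu. Podxl, which encodes podocalyxin, was at least 63.2-fold lower in A, 61.4-fold in B and 37.8-fold in C, being not well above background on any fibroblast array, while Podxl2, which encodes endoglycan, was 9.98-fold higher in A (3.32 ± 0.47, adjusted p = 0.00248), 7.78-fold in B and 8.61-fold in C. Podxl2 was well above background on only 1 of the 2 Pu arrays. Of 6 genes of the CD248 family and its ligands, 3 were lower in each type, and 1 was higher in A, 2 in B and 1 in C. Cd93, an endothelial member of the Cd248 family, was lower in every type, with log2 differences of -7.83 for A (adjusted p = 5.29e-05), -8.30 for B and -8.20 for C, and so was its relative Clec14a, with -3.79, -4.05 and -3.98.

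Of 11 other annexins, 3 were higher and 1 lower in A and in B than in Pu, and 2 were higher and 1 lower in C. Anxa7 was 4.37-fold higher in A (2.13 ± 0.31, adjusted p = 0.00301), 4.72-fold in B and 3.40-fold in C, and Anxa8 was 7.14-fold lower in A, 6.86-fold in B and 21.7-fold in C (-4.44 ± 0.43, adjusted p = 0.000552; -3.81 without C1 and -5.07 without C2). None of the 11 was called between types. Of 8 tested relatives of Pcsk6, 1 was higher in A and 2 each in B and C, namely Mbtps1, which encodes the site-1 protease (2.60, 2.46 and 1.96 for A, B and C), and Pcsk5 in B and C (1.63 and 1.64). The A and B calls of Mbtps1 were lost on leaving out either array of the type concerned. The B call of Pcsk5 was lost without A1, A2, B1 or B2, and the C calls of both genes on leaving out any 1 of the 6 fibroblast arrays. Their values also moved with the Pu arrays, Mbtps1 without Pu1 to 1.64, 1.51 and 1.01 for A, B and C and without Pu2 to 3.55, 3.42 and 2.92, and Pcsk5 to 2.24 in B and 2.25 in C without Pu1 and to 1.02 and 1.03 without Pu2.

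For Ackr3, 12 ligands and related receptors were read. Against Pu, 2 were higher and 7 lower in A, 2 higher and 6 lower in B, and 1 higher and 8 lower in C. Among its ligands, Adm, which encodes adrenomedullin, was 14.0-fold higher in A than in Pu (3.81 ± 0.29, adjusted p = 0.000203), 10.4-fold in B and 5.49-fold in C. Cxcl12 was not called, at -0.25 for A, -0.76 for B and -0.90 for C (adjusted p = 0.0855 for C). Cxcr4, the signalling receptor for CXCL12, was lower, with log2 differences of -6.43 for A, -6.31 for B and -4.55 for C, and Calcrl, the adrenomedullin receptor, was at least 33.1-fold lower in A, 31.9-fold in B and 19.8-fold in C. Between B and C, the atypical receptors Ackr2 (5.45 ± 0.48, adjusted p = 0.00466) and Ackr4 (2.82 ± 0.47, adjusted p = 0.0311; at least 4.48-fold) were called higher in B, as Ackr3 was. Ackr2 was well above background on only 1 of the 2 C arrays. The Ackr2 call was lost without B1 or B2, and the Ackr4 call without A1, A2, B1, B2 or C2.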

How the data were processed

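Arrays were scanned with Agilent Feature Extraction 10.10.1.1, per the submitters' processing notes. The deposited scanner files hold, per the file headers, a background-subtracted intensity for each spot. The authors' value table holds log2 values; its column medians were all 4.84, and 99.71% to 99.82% of 55653 probes lay within 0.02 of the log2 intensity minus a constant, so only a constant separates it from median scaling. Control spots and outlier spots were left out, spots of a probe were averaged (55681 probes, 28 without a usable spot on an array, 0 saturated spots), and probes were named through mouse RefSeq accessions. The log2 intensity minus the array's 75th percentile was fitted by limma 3.58.1 (R 4.3.3; lmFit and eBayes with contrasts of groups), with 4 group means over 8 arrays, 4 residual and 3.06 prior degrees of freedom. Of 24474 named genes, 17755 had a probe well above background on both arrays of some group, and their brightest probe of this kind was used. Benjamini-Hochberg adjusted p-values run over all of these, with a threshold of 0.05. For a group not above background, each signal was set no lower than the lowest signal well above background on its array. The words at least mark a fold computed in this way. Some probes not well above background read above that lowest signal, as Anxa3 did on C2 (-3.31 against -4.19). The floor is thus no strict detection limit, and such folds are approximate. The limma script was tested on simulated data. Figures used matplotlib 3.10.9.

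Named genes are the members, the 3 nearest genes by Pearson r, called genes of the marker and family lists by size of difference, and the genes of the sort. Members and lists were chosen with earlier results of these data known. Alternatives covered scaling, background correction, the detection filter, the variance model, the arrays fitted and each array left out. Replicate numbers did not pair samples: deviations of same-numbered arrays from their group means correlated at -0.085 to 0.058 over the 6 pairs of groups. The number of arrays, 2 in each group, limits the precision.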

Additional observations from a re-analysis of the deposited data

Results flagged for a closer look

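The difference from Pu was not the same in all fibroblast types for 5 of the 7 genes, by limma's test of the difference between types. Dpp4 was 5.82 higher on the log2 scale in B than in C, Pcsk6 4.06, Anxa3 3.95, Cd248 2.90 and Ackr3 2.79. Pcsk6 was also 2.50 higher in A than in C, and Cd248 2.45. The B against C values of Dpp4, Cd248, Anxa3 and Ackr3 missed the threshold without B1 or B2, that of Pcsk6 without B1, and both A against C values without A1, A2, B1, B2 or C2.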

How the results depend on the processing

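Of 822 recomputed member differences, 756 kept their direction and their side of the threshold, 40 lost a call, 23 gained one and 3 changed sign. The 3 were all Dpp4 in B against Pu, at 0.0536 under median scaling, 0.0550 with the authors' table and, on leaving out 1 array, from -0.836 to 0.246 (without Pu1), none called. Members called among 7 were 3 in C against Pu in the 4 compared arrays alone. In A against B, 1 was called with normexp and 4 with array weights. In A against C, 1 was called under median scaling, quantile normalization, the authors' table, normexp or a filter to probes above background on all arrays (4 members tested), and 0 with no filter, in the 4 arrays alone or with the replicate block. In B against C, 2 of 4 tested were called with that filter and 3 in the 4 arrays alone. Leaving out 1 array at a time gave 5 to 7 members called in A against Pu, 5 to 5 in B against Pu, 5 to 6 in C against Pu, 0 to 0 in A against B, 0 to 4 in A against C and 0 to 6 in B against C. The replicate block, for numbers that did not pair the samples, moved the A against C call of Cd248 and Pcsk6 to an adjusted p of 0.0635 and changed no other member call. Why these values moved was not tested, beyond the fewer arrays or genes in some fits.

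Over all genes, A against Pu had 4686 calls and 3123 with array weights, B against Pu 5128 and 3392, and C against Pu 5027 and 2145, with 2271 in the 4 arrays alone. Without one array of the type, A against Pu had 2157 to 2402 and B against Pu 2341 to 2477. A against B had 0 calls, 22 with normexp, 4 with a trended robust variance and 240 with array weights. A against C had 69, then 175, 138 and 221 under these settings, 1 with no filter, 0 in the 4 arrays alone and with the block, and 0 to 484 with an array left out. B against C had 426, 246 with no filter, 745 with array weights, 126 in the 4 arrays alone, and 2 to 926 with an array left out. Median scaling moved the median of all genes to 0.44 in A minus Pu, 0.46 in B minus Pu and 0.45 in C minus Pu, and a percentile taken from probes detected on every array to -0.18, -0.21 and -0.26. Slide and scan could not be fitted as a block, since each holds either Pu or fibroblast arrays. Signal near background limits Dpp4 and Anxa3 on C2 and Pcsk6 on C2 and Pu1. Among relatives named above, it also limits Fap and Podxl2 in Pu and Ackr2, Anxa8 and Cd93 in C, each well above background on only 1 array of that group.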
